A study of Homo sapiens with 3 samples.

Results

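Some human genes are annotated with one isoform that encodes a protein (RefSeq prefix NM_) and one that RefSeq lists as non-coding (prefix NR_). Here 86 such genes were followed in HEK293T cells. Each had exactly 2 isoforms in the deposited isoform table, 1 NM_ and 1 NR_, both at least 300 nt long and with an estimate marked OK. Each also had a summed isoform level of at least 10 FPKM (fragments per kilobase of transcript, scaled to the number of mapped reads) in every library. Of 23284 genes in the gene table, 4140 had exactly 2 isoforms and 228 of those were NM_ and NR_ pairs. The other 142 pairs were below 10 FPKM in at least 1 library. The members were thus chosen by their summed FPKM in each library. The division of that sum between the 2 isoforms was not used, and it is the quantity described below.

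HEK293T is a line of human embryonic kidney cells that carries the SV40 large T antigen. Poly(A) RNA came from 3 cultures, 1 library each, harvested 48 h after the cells were seeded together with a control siRNA, an siRNA against ESRP2, or an siRNA against Arkadia. None of the 3 received TGF-beta. ESRP2 is an RNA-binding protein that regulates splicing in epithelial cells, and Arkadia, encoded by RNF111, is a ubiquitin ligase that acts in TGF-beta signalling. With 1 library per siRNA no comparison had a replicate check, so no test was run. All 3 comparisons also draw on the same 3 libraries: both knockdowns share 1 control, and the direct comparison reuses the knockdown libraries.

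A messenger RNA whose reading frame stops well upstream of its last exon junction is a usual target of nonsense-mediated decay, in which UPF1 and the SMG proteins recognise the early stop and the transcript is degraded. RefSeq gives an NR_ accession to many transcripts of coding genes for this reason, and to others because an exon with the start codon is missing. Poison exons, which bring an in-frame stop into the mature RNA, are known from genes for SR splicing factors. Such isoforms are usually a small part of a gene's RNA. Their level in poly(A) RNA is set both by how often they are made and by how long they last.

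RNF111 stood at 6.38, 7.65 and 1.15 FPKM and ESRP2 at 14.8, 4.27 and 21.2 FPKM in the control, ESRP2 siRNA and Arkadia siRNA libraries. Each target was thus lowest in its own library. The authors' bounds for ESRP2 overlapped between control (3.34 to 26.3 FPKM) and ESRP2 siRNA (0.0878 to 9.33 FPKM). Those for RNF111 did not overlap between control (3.15 to 9.59 FPKM) and Arkadia siRNA (0.50 to 1.82 FPKM). The isoform values imply a depth of about 12, 12.3 and 9.20 M reads, and the Arkadia siRNA library was the shallowest. Of 6 genes known from HEK293T, 5 reached 1 FPKM in every library, the exception being PAX2 at 0.835 FPKM with ESRP2 siRNA. Of 12 markers of other cell types, 10 stayed under 1 FPKM in all 3 libraries. In bulk RNA, fewer cells with a transcript and less of it per cell cannot be told apart.

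Where the exon structure of both isoforms could be read, the NR_ isoform carried an early stop in 38 of 41 genes. In 41 of 86 genes both accessions were linked to GENCODE release 29 transcripts (GRCh38) with the length difference of the deposited table. That difference was taken within the span both transcripts share, so differences at the transcript ends were not counted. The following counts are over those 41. One inserted stretch distinguished the NR_ isoform in 24 of them, 18 times a whole exon, 4 times a longer exon and 2 times a retained intron. One skipped stretch distinguished it in 9, of which 7 were whole exons, and 8 had several differences. The 33 single stretches were 28 to 1029 nt long with a median of 110 nt, 32 lay inside the coding span, and 22 had a length that is not a multiple of 3. The start codon of the NM_ isoform was present in 38 NR_ isoforms, and the frame read from it met an earlier stop in all 38. ARL6IP6, C19orf79 and GCSH lack that start codon in the NR_ isoform, and no frame was read for them. In C19orf79 the counted difference is 1 inserted stretch, so its transcripts also differ outside that stretch. In the 38 genes, the earlier stop lay more than 50 nt before the last exon junction in 37, MYCBP being the exception at 37 nt. It lay inside the inserted stretch in 20. GENCODE itself labels 24 of the 41 NR_ transcripts as nonsense-mediated decay transcripts, 8 as processed transcripts, 2 as retained introns and 7 as protein coding.

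**Figure D1:**
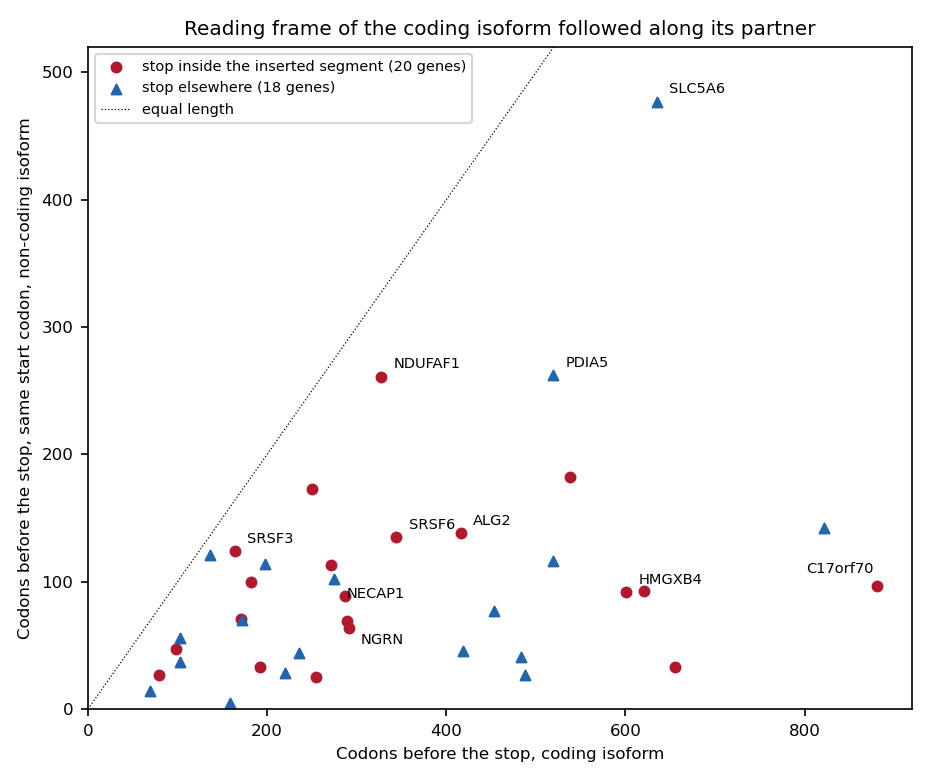
Codons read from the start codon of the coding isoform up to the stop, in the coding isoform (horizontal axis) and in its NR_ partner (vertical axis), 1 symbol per gene for 38 genes. All 38 symbols lie under the dotted line of equal length; circles mark the 20 genes whose stop is inside the inserted stretch and triangles the other 18.

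The stretches below belong to genes described in the results, 3 with an exon gained in the NR_ isoform and 2 with an exon lost. Each is read 5′ to 3′ on the strand of the gene, from GENCODE 29 transcripts on GRCh38. Capitals mark the stretch by which the isoforms differ within the span both share, and lower case the 12 nt on each side in the spliced RNA. SRSF6, ALG2 and HMGXB4 gain the exon in capitals.
SRSF6, chr20:43459153-43459420 (plus strand): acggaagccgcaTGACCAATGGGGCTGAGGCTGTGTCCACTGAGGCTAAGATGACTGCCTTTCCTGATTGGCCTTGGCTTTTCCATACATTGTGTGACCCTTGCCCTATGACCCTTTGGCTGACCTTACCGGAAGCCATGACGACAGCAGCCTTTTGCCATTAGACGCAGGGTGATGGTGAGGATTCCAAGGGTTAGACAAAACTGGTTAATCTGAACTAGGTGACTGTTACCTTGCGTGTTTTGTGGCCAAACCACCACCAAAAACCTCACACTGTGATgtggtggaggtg
ALG2, chr9:99220979-99221137 (minus strand): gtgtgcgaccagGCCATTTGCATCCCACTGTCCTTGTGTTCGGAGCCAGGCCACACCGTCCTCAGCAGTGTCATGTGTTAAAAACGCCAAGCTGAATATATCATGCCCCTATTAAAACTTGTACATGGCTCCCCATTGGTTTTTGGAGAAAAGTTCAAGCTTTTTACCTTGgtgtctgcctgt
HMGXB4, chr22:35263982-35264096 (plus strand): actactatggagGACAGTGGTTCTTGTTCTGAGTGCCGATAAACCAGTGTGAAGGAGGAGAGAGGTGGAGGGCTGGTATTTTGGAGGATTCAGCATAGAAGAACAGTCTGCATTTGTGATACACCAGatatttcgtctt
NECAP1 and NENF lose the exon in capitals from the NR_ isoform.
NECAP1, chr12:8091769-8091850 (plus strand): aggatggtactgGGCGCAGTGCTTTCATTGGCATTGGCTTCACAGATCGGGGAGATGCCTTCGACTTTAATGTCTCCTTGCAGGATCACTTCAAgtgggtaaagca
NENF, chr1:212442565-212442625 (plus strand): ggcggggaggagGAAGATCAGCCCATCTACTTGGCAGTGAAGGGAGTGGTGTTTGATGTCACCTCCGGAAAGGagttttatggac

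The SRSF6 exon of 268 nt brings an in-frame TAG at its base 150 and ends the frame after 135 codons instead of 344. In ALG2 the 159-nt exon brings TAA at its base 67, which leaves 138 of 416 codons. The HMGXB4 exon of 115 nt brings TGA at base 18 and leaves 92 of 601 codons. Loss of 82 nt in NECAP1 and of 61 nt in NENF shifts the frame, which then closes after 102 of 275 and 70 of 172 codons.

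The NR_ isoform was a minor part of most of these genes. Its share, the NR_ level divided by the summed level of both isoforms, had a median of 6.26% in the control library, 5.43% with ESRP2 siRNA and 7.64% with Arkadia siRNA. The middle 50% of genes lay between 2.02 and 23.4% in the control, 1.73 and 25.2% with ESRP2 siRNA, and 1.62 and 27.8% with Arkadia siRNA. Summed over the 86 genes, NR_ isoforms carried 12.5, 11.7 and 14.6% of the FPKM. The share was under 10% in 51, 50 and 48 genes and above 50% in 11, 10 and 12. By comparison, the minor isoform of the 1115 genes with 2 NM_ isoforms under the same filters had a median share of 10.1%, against 7.84% for the minor isoform of the 86 pairs.

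Each share is imprecise. The lowest and highest share that the authors' confidence bounds on both isoforms allow was 33.2, 29.1 and 34.2 percentage points wide at the median. The median NR_ isoform rested on about 70.2, 99.5 and 67.4 reads, an approximation from FPKM, length and implied depth. In 2, 3 and 3 genes the share fell outside the range its own bounds allow, since the deposited interval of an isoform near 0 can have no width.

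Sorted by level of the NR_ share, 40 genes stayed under 10% in all 3 libraries, 11 stayed between 10 and 50%, 7 stayed above 50%, 10 were above 50% in some libraries but not all, and 18 crossed 10%. The plot of shares by library shows the 46 genes outside the first class.

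**Figure D2:**
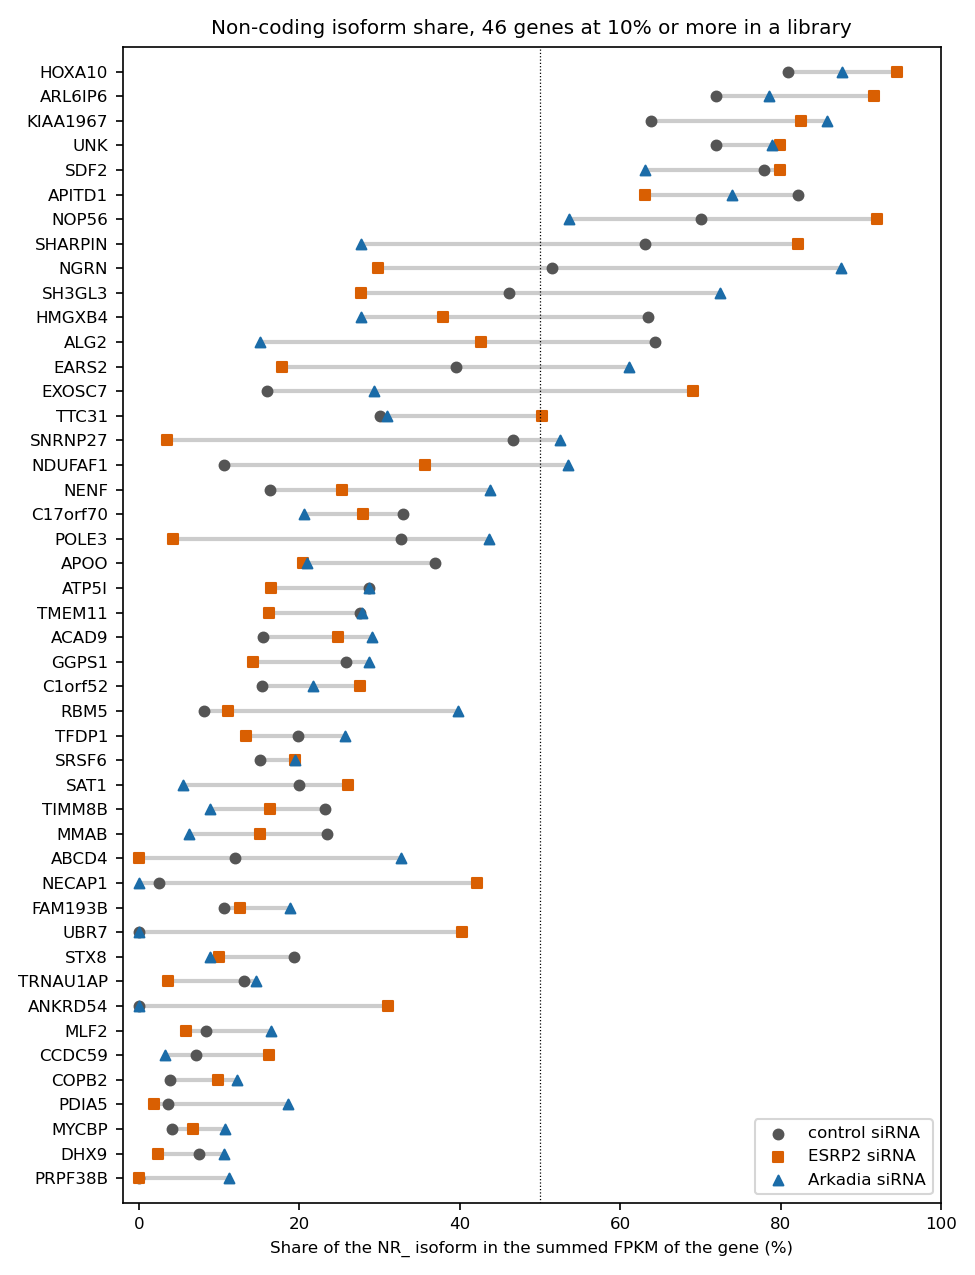
Share of the NR_ isoform in the summed FPKM of its gene (horizontal axis, %) for the 46 genes that reached 10% in at least 1 library, with 1 symbol per library and a grey line over their range. The 7 genes at the top stay right of the dotted line at 50% in all 3 libraries, while SNRNP27, EXOSC7 and NGRN span it.

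Among the 14 genes for RNA processing, the median share was 8.49% in the control, 3.55% with ESRP2 siRNA and 12.9% with Arkadia siRNA. SRSF3 and SRSF6 encode SR proteins, which bind exonic enhancers and control splice site choice. For SRSF3 the NM_ isoform stood at 281, 540 and 243 FPKM and the NR_ isoform, with a 456-nt exon whose TGA ends the frame after 124 of 164 codons, at 14.0, 11.2 and 17.7 FPKM (control, ESRP2 siRNA, Arkadia siRNA). That put its share at 4.73, 2.03 and 6.77%. For SRSF6 the NM_ isoform stood at 48.4, 67.4 and 48.7 FPKM and the isoform with the exon printed above at 8.63, 16.3 and 11.7 FPKM. Its share of 15.1, 19.5 and 19.4% was above that of SRSF3 in every library, and the 3 libraries lay within 5 percentage points of each other. NOP56, a core protein of the box C/D small nucleolar ribonucleoproteins that guide ribosomal RNA methylation, had the NR_ isoform ahead throughout, at 170, 255 and 136 FPKM against 72.5, 22.2 and 117 FPKM for NM_. Its share of 70.1, 92.0 and 53.6% was highest with ESRP2 siRNA; the locus also holds SNORD56, SNORD57, SNORD86, SNORD110, SNORA51 and MIR1292, and their part in the NR_ level was not tested. UNK, an RNA-binding zinc finger protein, stood at 72.0, 79.9 and 78.9%.

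Of the 18 mitochondrial genes, 9 stayed under 10% and none was above 50% in all libraries. COX7A2, a cytochrome c oxidase subunit, was among the most abundant genes with 343, 717 and 547 FPKM of the NM_ isoform, and its NR_ share was 0.339, 0.350 and 0.151%. ATP5I, a subunit of ATP synthase, was 28.7, 16.5 and 28.7% NR_. TMEM11 and ACAD9, which act in cristae organisation and in complex I assembly, were 27.6, 16.2 and 27.8% and 15.5, 24.8 and 29% NR_. APOO, another protein of the cristae-organising complex, was 37.0, 20.4 and 20.9% NR_.

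The 15 genes for chromatin, transcription and the cell cycle had a median share of 7.08, 4.24 and 10.8%, and 3 of them were led by the NR_ isoform in all libraries. HOXA10, a homeodomain transcription factor, had NR_ at 34.9, 44.5 and 28.4 FPKM and NM_ at 8.20, 2.57 and 4.0 FPKM, a share of 81.0, 94.5 and 87.6%. KIAA1967, a regulator of the deacetylase SIRT1, stood at 63.9, 82.6 and 85.8%, and the centromere protein gene APITD1 at 82.2, 63.0 and 73.9%. The loci of these 3 genes overlap other annotated genes, among them HOXA9, BIN3 and CORT, whose part in the NR_ level was not tested. TFDP1, the partner of E2F factors, stood at 19.8, 13.4 and 25.7%.

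Genes of the secretory pathway and trafficking numbered 12, with medians of 4.43, 9.93 and 10.5%. ARL6IP6, a membrane protein, and SDF2, a luminal protein of the endoplasmic reticulum, were led by NR_ at 72.0, 91.7 and 78.5% and at 78.0, 79.9 and 63.1%. The 18 genes for metabolism, signalling and protein turnover had the lowest medians, 2.61, 1.93 and 2.90%. PPP2R1A, the scaffold subunit of protein phosphatase 2A, had an NR_ isoform listed at 0 in all 3 libraries beside 233, 238 and 329 FPKM of NM_. For the phosphofructokinase gene PFKL the share was 0, 0.946 and 0.198%. GGPS1, which makes geranylgeranyl diphosphate for prenylation, lay higher at 25.9, 14.3 and 28.7%. In the remaining group, C1orf52 stood at 15.4, 27.6 and 21.8% and C21orf59 at 0.851, 0 and 0.926%. C17orf70, a subunit of the Fanconi anaemia core complex grouped with chromatin, stood at 33.0, 28 and 20.6%.

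The NR_ share was higher where the isoforms began at different annotated starts. The table gave both isoforms the same start group in 73 genes and different ones in 13. In the control library the median share was 4.65% for the 73 and 25.9% for the 13, with ESRP2 siRNA 5.15 and 14.3%, and with Arkadia siRNA 6.23 and 27.7%. NR_ led in every library in 3 of the 73 and in 4 of the 13, namely APITD1, HOXA10, KIAA1967 and SDF2. NR_ isoforms were longer than their partners in 47 genes and shorter in 39, by 5 to 2535 nt with a median of 109.5 nt. Across the 86 genes Spearman's rho between the size of the length difference, regardless of sign, and the mean share was 0.32, a description over genes that share the same 3 libraries. Among the 41 genes of known structure, the median share in the control was 11.9% with 1 inserted stretch and 3.83% with 1 skipped stretch, 11.2 and 2.08% with ESRP2 siRNA, and 7.83 and 2.99% with Arkadia siRNA. The 24 transcripts that GENCODE labels for nonsense-mediated decay had medians of 8.64, 11.3 and 7.83%, beside 8.87, 6.69 and 8.92% for the other 17.

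With ESRP2 siRNA the NR_ share rose in EXOSC7, UBR7, NECAP1, ANKRD54 and NDUFAF1 and fell in SNRNP27, POLE3 and HMGXB4. A difference of 25 percentage points or more was counted as a rise or a fall. These 8 genes are 9.30% of the 86, while 10.7% of all 1211 genes with 2 isoforms under the same filters moved that far. The share of members that moved was thus near the background. In each direction, 5 and 3 members (5.81 and 3.49%) compare with 5.33% of isoforms in the background. The median difference regardless of sign was 3.92 points, beside 4.45 points in the genes with 2 NM_ isoforms, of which 10.7% moved. For 47 of the 86 the shares lay within 5 points of each other.

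EXOSC7, a subunit of the RNA exosome that degrades and trims RNA 3′ ends, had NR_ at 5.65 FPKM in the control, 59.4 with ESRP2 siRNA and 20.9 with Arkadia siRNA, and NM_ at 29.7, 26.6 and 50.4 FPKM. Its share of 16.0, 69.1 and 29.3% rose by 53.1 points with ESRP2 siRNA, while NM_ stayed close to its control level. UBR7, a ubiquitin ligase of the UBR-box family, had NR_ at 0.000321, 23.7 and 0 FPKM and NM_ at 24.0, 35.0 and 19.5 FPKM, so NR_ stood well above 0 in the ESRP2 siRNA library alone, at a share of 40.3%. C14orf142 lies in the same locus and its part was not tested. NECAP1, an adaptor of clathrin-coated vesicles, had the exon-skipped NR_ isoform at 0.567, 22.2 and 0 FPKM and NM_ at 21.4, 30.5 and 15 FPKM. Its share of 2.58, 42.1 and 0% followed the order of UBR7, with the ESRP2 siRNA library high and the other libraries near 0. ANKRD54, an ankyrin repeat protein, showed 0.0392, 31.1 and 0.00152%, but its isoforms differ in length by 5 nt only and MIR658 lies in its locus, whose part was not tested.

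SNRNP27, a protein of the U4/U6.U5 tri-snRNP, went the other way. NM_ stood at 10.4, 39.8 and 13.2 FPKM and NR_ at 9.07, 1.43 and 14.6 FPKM, so that the share of 46.6, 3.47 and 52.5% fell by 43.2 points with ESRP2 siRNA and was close in the other libraries. POLE3, a histone-fold subunit of DNA polymerase epsilon, had NM_ at 38.9, 120 and 28.7 FPKM and NR_ at 18.9, 5.32 and 22.2 FPKM. Its share of 32.7, 4.24 and 43.6% had the same order of libraries as SNRNP27. C9orf43 lies in the POLE3 locus, and its part was not tested. HMGXB4, an HMG-box protein of chromatin, had NM_ at 7.33, 10.0 and 10.8 FPKM and the isoform with the printed exon at 12.7, 6.13 and 4.13 FPKM. This share of 63.5, 37.9 and 27.7% fell in both knockdown libraries, by 25.6 and 35.8 points. With 1 FPKM added to each isoform the difference with ESRP2 siRNA was -23.0 points, under the size counted.

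**Figure D3:**
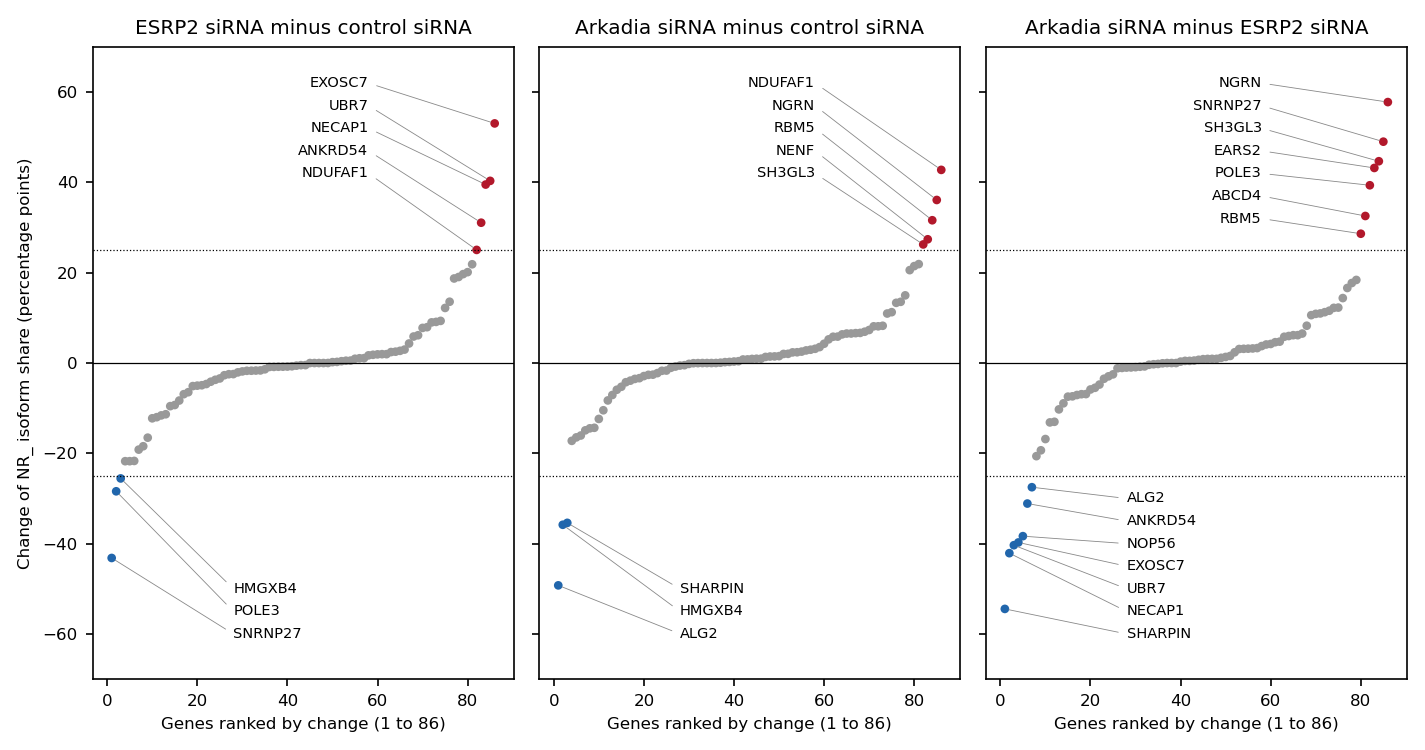
Difference of the NR_ share in percentage points (vertical axis) for the 86 genes, ranked by that difference (horizontal axis), in the 3 comparisons. Dotted lines mark 25 points; red and blue symbols with names are the genes that passed it upwards (5, 5 and 7) and downwards (3, 3 and 7), and grey symbols did not.

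With Arkadia siRNA the NR_ share rose in NDUFAF1, NGRN, RBM5, NENF and SH3GL3 and fell in ALG2, HMGXB4 and SHARPIN. These 8 genes are again 9.30% of the 86, beside 8.09% of the 1211 genes with 2 isoforms. Members rose in 5.81% and fell in 3.49%, against 4.05% of isoforms in either direction in the background. The median difference regardless of sign was 4.07 points, beside 4.18 points and 7.98% moved in the genes with 2 NM_ isoforms.

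NDUFAF1, an assembly factor of respiratory complex I, had NM_ at 15.8, 10.8 and 5.11 FPKM and NR_ at 1.89, 6.02 and 5.87 FPKM. Its share of 10.7, 35.7 and 53.4% rose in both knockdown libraries, by 25.1 and 42.8 points. With 1 FPKM added to each isoform the first of these was 22.6 points, under the size counted. NGRN, a mitochondrial protein needed for ribosomal RNA in that organelle, has an NR_ isoform with a 411-nt retained intron, in which TGA ends the frame after 64 of 291 codons. NR_ stood at 53.7, 49.9 and 65.2 FPKM and NM_ at 50.7, 118 and 9.25 FPKM. Across the shares of 51.5, 29.8 and 87.6%, NM_ was the isoform that differed most between libraries.

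RBM5, a splicing regulator linked to apoptosis, had NR_ at 3.35, 3.60 and 15.4 FPKM and NM_ at 37.9, 28.8 and 23.3 FPKM, a share of 8.11, 11.1 and 39.7%; the RNA LUST lies in the same locus and was not tested for a part in it. NENF, a secreted neurotrophic factor, had the exon-skipped isoform at 34.1, 61.0 and 84.2 FPKM and NM_ at 174, 180 and 108 FPKM. Its share of 16.3, 25.3 and 43.7% was highest with Arkadia siRNA, a rise of 27.4 points. SH3GL3, an endophilin of endocytosis, stood at 46.1, 27.7 and 72.4%, and its isoforms differ in length by 7 nt only. Its rise of 26.3 points with Arkadia siRNA was 22.4 points with 1 FPKM added to each isoform.

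ALG2, a mannosyltransferase of N-glycan synthesis, had NM_ at 4.91, 11.0 and 9.09 FPKM and the isoform with the printed exon at 8.88, 8.17 and 1.63 FPKM. The share of 64.4, 42.7 and 15.2% fell by 49.2 points with Arkadia siRNA, where the NR_ level was lowest. SHARPIN, a subunit of the linear ubiquitin ligase complex, had NM_ at 5.16, 2.32 and 14.3 FPKM and NR_ at 8.82, 10.7 and 5.47 FPKM. Its share of 63.1, 82.1 and 27.7% fell by 35.4 points with Arkadia siRNA, and the ESRP2 siRNA library was the highest of the 3.

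Between the knockdown libraries, 7 shares were higher with Arkadia siRNA (NGRN, SNRNP27, SH3GL3, EARS2, POLE3, ABCD4 and RBM5) and 7 lower (SHARPIN, NECAP1, UBR7, EXOSC7, NOP56, ANKRD54 and ALG2) by 25 points or more. ALG2, at -27.5 points, stood at -22.7 points with 1 FPKM added to each isoform. The 14 genes are 16.3% of the 86, beside 15.4% of the 1211 genes, and 8.14% in each direction beside 7.68% of isoforms. EARS2, the mitochondrial glutamyl-tRNA synthetase, stood at 39.6, 17.9 and 61.1%, so the control lay between the knockdown libraries and within 25 points of each. ABCD4, a transporter of vitamin B12 from lysosomes, stood at 12, 0.0513 and 32.6% in the same order of libraries.

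**Figure D4:**
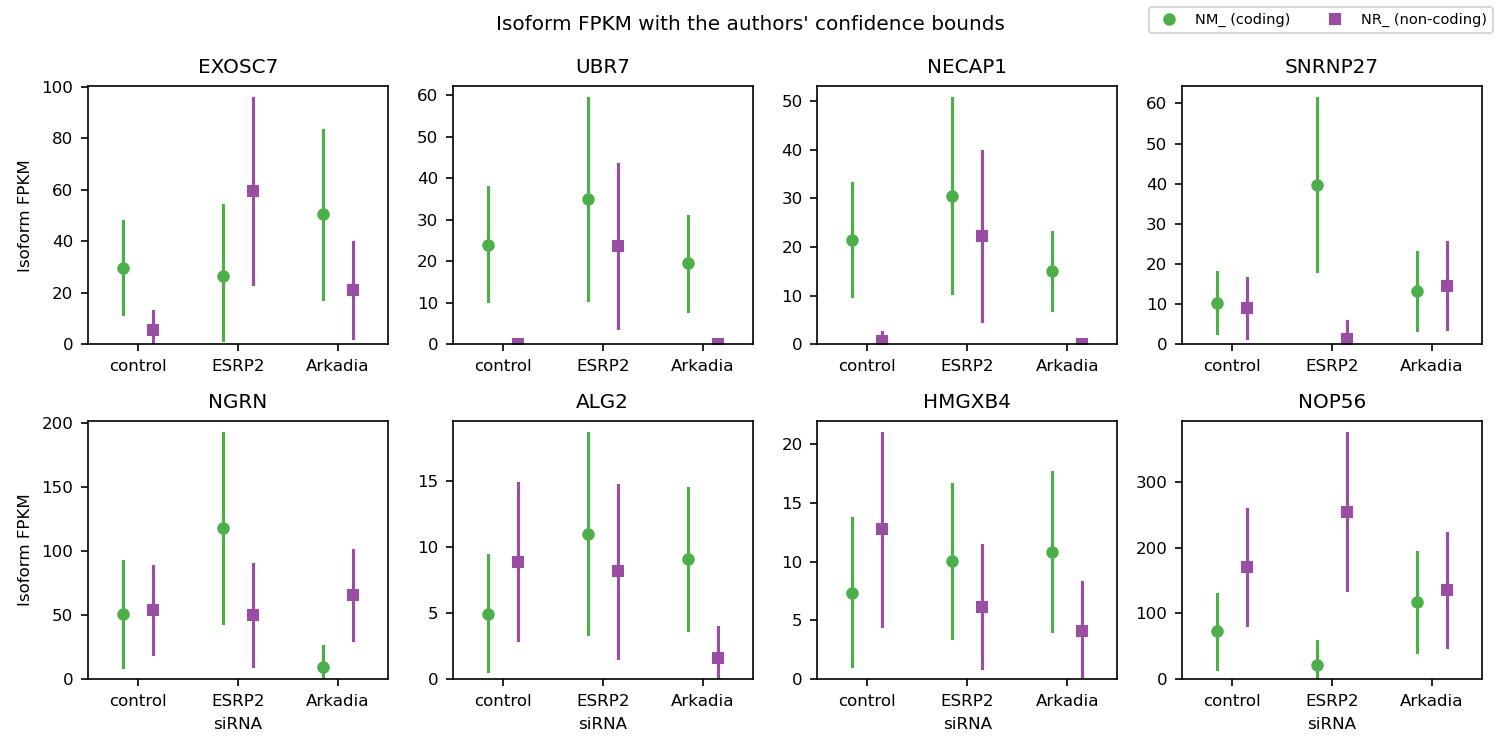
Isoform level in FPKM (vertical axis, from 0, scaled per gene) of the NM_ isoform (circles) and the NR_ isoform (squares) of 8 genes in the 3 libraries, with bars for the confidence bounds the authors deposited. In EXOSC7, UBR7 and NECAP1 the square is highest with ESRP2 siRNA (59.4, 23.7 and 22.2 FPKM), while in NGRN the circle moves most, from 9.25 to 118 FPKM.

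Few of these differences in share exceeded the ranges that the authors' own bounds allow. Between ESRP2 siRNA and control, the share ranges that the bounds allow did not overlap in 2 members, UBR7 and ANKRD54, where 3.14% of the 1211 genes had ranges apart. Both had a control NR_ interval without width, and another gene lies in the locus of each. Between Arkadia siRNA and control none of the 86 had ranges apart (background 2.97%). Between the knockdown libraries 4 did, namely UBR7, ANKRD54, NECAP1 and ABCD4 (background 4.87%). Here too the NR_ interval had no width for ANKRD54 with Arkadia siRNA and for ABCD4 with ESRP2 siRNA. UBR7 and NECAP1 had NR_ at 0 with Arkadia siRNA. For EXOSC7 the control share range of 0 to 52.6% overlapped the ESRP2 siRNA range of 30.3 to 98.4%. The EXOSC7 NR_ bounds alone did not overlap, at 0 to 12.9 FPKM in the control and 23.5 to 95.5 FPKM with ESRP2 siRNA. Its NM_ bounds did overlap, at 11.7 to 47.8 FPKM and 1.51 to 54.1 FPKM. For ALG2 the control share range of 24.0 to 95.9% overlapped the Arkadia siRNA range of 0 to 51.6%. Less abundant genes moved more: among the 43 below a mean of 33.0 FPKM the median difference regardless of sign was 7.94 points with ESRP2 siRNA and 5.92 points with Arkadia siRNA, and among the 43 above it 2.52 and 2.95 points.

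More of the pairs rose than fell in summed level with ESRP2 siRNA. On the scale log2 of (FPKM + 1), where 2-fold or more was counted, 11 of the 86 rose and 1 fell, which is 12.8 and 1.16% beside 5.77 and 1.78% of the 5288 genes that pass the same filters with any number of isoforms. With upper-quartile scaling 5 of the 86 rose instead of 11, and with median-of-ratios scaling 8. The background was not recomputed with either scaling. Without such scaling the median log2 difference was 0.31 for the 86 and 0.12 for the 5288. GCSH, a carrier protein of glycine cleavage, rose from 16.8 to 55.5 FPKM (log2 difference 1.66, no replicate) and the thioredoxin-like protein gene TXNL1 from 44.1 to 126 FPKM (1.49). EXOSC7 and UBR7 rose in sum from 35.3 to 86 FPKM (1.26) and from 24.0 to 58.6 FPKM (1.25), the first by NR_ and the second by both isoforms. PFKL fell from 65.1 to 30.8 FPKM (-1.06). At a size of 1.5-fold, 28 members were higher and 4 lower (32.6 and 4.65%), beside 20.3 and 10.2% of the 5288.

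Levels with Arkadia siRNA moved less often. ATP5I rose from 148 to 393 FPKM (log2 difference 1.40) and TIMM8B, a chaperone of the mitochondrial intermembrane space, from 47.6 to 116 FPKM (1.27). HAUS1, a subunit of the augmin complex of the spindle, fell from 65.8 to 28.6 FPKM (-1.17), GGPS1 from 32.0 to 13.9 FPKM (-1.15) and the splicing factor gene PRPF38B from 23.5 to 11.0 FPKM (-1.03). These are 2.33 and 3.49% of the 86, beside 1.91 and 1.63% of the 5288. At 1.5-fold, 10 were higher and 9 lower (11.6 and 10.5%), beside 11.4 and 9.27%. Between the knockdown libraries 3 genes were higher and 19 lower with Arkadia siRNA (3.49 and 22.1%, beside 8.83 and 14.1%), and at 1.5-fold 8 and 34 (9.30 and 39.5%, beside 21.4 and 28.3%). Upper-quartile scaling gave 12 lower at 2-fold instead of 19, and median-of-ratios scaling 15, again without a recomputed background. GC content moved with the levels. Across the 86 genes, Spearman's rho between transcript GC content and the log2 difference was -0.61 with ESRP2 siRNA, 0.53 with Arkadia siRNA and 0.73 between the knockdown libraries, a description over genes measured in the same 3 libraries. The part of GC content in the levels was not tested.

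Genes that degrade such transcripts or regulate splicing were followed as lists in the gene table, beside housekeeping genes. Of 26 genes for nonsense-mediated decay and the exon junction complex, 8 were higher and 2 lower by 1.5-fold or more with ESRP2 siRNA, with a median log2 difference of 0.30, where 19.9 and 11.4% of 11870 genes passed that size and their median was 0.12. With Arkadia siRNA 0 were higher and 5 lower with a median of -0.11, where 9.81 and 11.8% passed and the median of all genes was -0.02. SMG8, a regulator of the SMG1 kinase, rose from 18.8 to 67.6 FPKM and PNRC2, which links UPF1 to decapping, from 22.5 to 70.3 FPKM with ESRP2 siRNA, while UPF1 itself fell from 35.9 to 20.5 FPKM. With Arkadia siRNA the decapping cofactor DCP1A fell from 16.2 to 6.61 FPKM and the exon junction protein UPF3B from 29.3 to 15.1 FPKM. Between the knockdown libraries 5 of the 26 were higher and 10 lower with Arkadia siRNA (median -0.49), where 21.2 and 30.8% of all genes passed. In the nuclear exosome list of 18, to which EXOSC7 belongs, 7 were higher and 1 lower with ESRP2 siRNA (median 0.40) and 3 each way with Arkadia siRNA (median -0.07). EXOSC1 rose from 79.1 to 211 FPKM with ESRP2 siRNA and EXOSC4 from 28.8 to 63.1 FPKM with Arkadia siRNA. Of 30 SR and hnRNP genes, which include SRSF3 and SRSF6, 3 were higher and 4 lower with ESRP2 siRNA (median -0.01), and 1 higher and 3 lower with Arkadia siRNA (median -0.15). Of 15 housekeeping genes, 3 were higher and 2 lower with ESRP2 siRNA, and 3 higher and 0 lower with Arkadia siRNA.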

How the data were processed

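Poly(A) RNA of 3 HEK293T cultures, 1 per siRNA, was sequenced on an Ion PI chip, per the labels' protocols. The authors deposited FPKM values with lower and upper bounds per isoform and per gene, in Cuffdiff-style tables. The submitters' processing notes name hg19 with Cufflinks 2.1.1, Cuffdiff, Bowtie2 2.1.0 and TopHat2 2.0.10. Their settings were not given in the sources used here. Isoform FPKM of overlapping isoforms are model estimates: reads in shared exons are divided by fit, which is least certain for isoforms that differ by a few bases. No read counts were used, and depth was inferred from the smallest steps of FPKM times length. What error the confidence bounds cover was not given in the sources used here. For the abundant housekeeping gene RPLP0, at 3880 FPKM in the control library, they ran from 2142 to 5616 FPKM. With 1 library per siRNA the bounds cannot stand in for replicates.

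The quantities computed were the NR_ share, its difference between libraries (25 percentage points counted) and log2 of (summed FPKM + 1). For the last, 2-fold was counted, or 1.5-fold for gene lists, at a mean of 1 FPKM or more. Python 3.11.15, pandas 2.3.3 and numpy 2.4.6 were used. The choice of pairs and the 25-point counts were tested on simulated pairs with little noise. Other steps were not tested that way. Exon structures came from GENCODE 29 transcripts carrying the same RefSeq accessions. Within the span both transcripts share, 41 pairs matched the deposited length difference and 14 had another. Ends outside that span were not compared. Another 26 were linked to 1 transcript for both isoforms and 5 had no match. The 45 pairs other than those 41 were left out of the structure counts. One marker gene and one exon sequence are not reported here. Named genes were the largest rises and falls of share (up to 8) and level (up to 4) per comparison, the most abundant members of each share class, list genes with the largest differences and genes at the 10 FPKM limit. The members, sizes and gene lists were chosen with earlier results of these data known. Alternatives changed the FPKM and length minimums, the size counted, the scaling, the pseudocount and the start groups.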

Additional observations from a re-analysis of the deposited data

How the results depend on the processing

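No paired analysis was possible because each siRNA has 1 library; for the same reason no replicate could be left out. Of 152 recomputed summary values 104 stayed near the main value and 48 did not. For counts, near meant within 1.5 times. For median shares and for percentages of genes with 2 NM_ isoforms, it meant inside a confidence interval of the main value. Part of the 104 had no way to change. With no length minimum and with any status the members were the same 86, which gave 11 unchanged values each. Gene-table levels differ from the isoform sums by at most 0.00063%, and they gave 6 more. A minimum length of 500 nt left 84 members, and all 11 of its values stayed near. Of 60 recomputed share differences of named genes 56 kept their side of 25 points and none reversed. Counts below are given as rose and fell for ESRP2 siRNA against control, Arkadia siRNA against control, and Arkadia siRNA against ESRP2 siRNA. At a minimum of 5 FPKM they were 10 and 7, then 8 and 6, with 15 falling in the direct comparison, and 10.5% of genes with 2 NM_ isoforms moved with Arkadia siRNA. At 20 FPKM, 49 members and 4 led by NR_ remained, with 1 and 1, 3 and 0, 4 and 2, and 8.36% of genes with 2 NM_ isoforms moved with ESRP2 siRNA. At 15 points the counts were 10 and 9, then 8 and 6; at 40 points 2 and 1, 1 and 1, 4 and 3; by share ranges that do not overlap 2 and 0, 0 and 0, 1 and 3. Without the 22 members whose locus holds another gene, an alternative chosen after seeing the data, 64 members were left, 3 led by NR_, with 3 rises with ESRP2 siRNA and 4 falls in the direct comparison. Summed levels at 1.5-fold gave 28 higher and 4 lower, 10 and 9, 8 and 34; by gene-table bounds that do not overlap 1 and 0, 0 and 0, 1 and 5. Upper-quartile scaling gave 5 higher with ESRP2 siRNA and 12 lower in the direct comparison. Adding 1 FPKM to each isoform took HMGXB4 (-23.0) and NDUFAF1 (22.6 points, ESRP2 siRNA), SH3GL3 (22.4, Arkadia siRNA) and ALG2 (-22.7, direct) under 25 points; the cause was not tested.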

Other observations

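Of the 142 pairs below 10 FPKM in some library, 2 groups were described by their lowest summed level. In the 27 with a lowest summed level of 5 to 10 FPKM and an estimate marked OK, the median share was 21.7% in the control, 19.5% with ESRP2 siRNA and 18.2% with Arkadia siRNA. None of these 27 was above 50% in all 3 libraries. In the 41 pairs with a lowest level of 1 to 5 FPKM the medians were 34.8, 24.8 and 24.2%, and 7 pairs were led by NR_ throughout.

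At the limit of 10 FPKM, MUDENG (lowest level 10.2 FPKM), GSTM3 (10.3) and SAT1 (10.4) were members, and FAM134C (9.73), SCML2 (9.66) and THUMPD2 (9.61) were not. SAT1, an enzyme of polyamine breakdown, stood at 19.9, 26.1 and 5.47% NR_ in the control, ESRP2 siRNA and Arkadia siRNA libraries. GSTM3, a glutathione transferase, stood at 3.29, 1.22 and 0.403%, and MUDENG at 3.54, 5.50 and 0.0199%. Just outside, SCML2, a Polycomb-group protein, stood at 32.8, 0.00324 and 84.8%, THUMPD2 at 43.2, 11.2 and 29.5% and FAM134C at 5.15, 10.8 and 0%.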
